A study of Equus caballus with 12 samples.

Results

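In the liver of 4 horses, 26 of the 31217 listed genes had messenger RNA levels at least 6-fold apart between the highest and the lowest of the 4 animals, while the same genes varied less than 4-fold in the heart and in the lung of those animals. The genes were chosen by these measured values, so the liver differences themselves are given as a description and carry no test. A gene belonged to the set if the median of its 4 liver libraries was at least 200 normalized counts, if the highest liver library held at least 6 times the lowest, if the liver median stayed under 20 times the higher of the heart and lung medians, and if the highest and lowest libraries differed less than 4-fold, after 5 counts were added, within heart and within lung. Normalized counts are read counts divided by a size factor for each library, the median ratio to the geometric mean over the 8968 genes with at least 10 counts in all 12 libraries. The liver median was at least 200 in 6119 genes, and in 113 of them (1.847%) the liver libraries differed at least 6-fold. Of these 113, 22 were liver-restricted by the 20-fold limit, 65 varied 4-fold or more in heart or lung as well, and 26 remained. The same rule written for heart found 59 genes, and written for lung it found 8.

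The liver makes most plasma proteins, stores glycogen, synthesizes and exports lipids and breaks down hormones and foreign compounds. Much of this work follows feeding, fasting, inflammation and the exposure of the animal to drugs and plant compounds, and liver transcripts that serve it can differ widely between animals sampled at the same time. The rule left out genes found almost solely in liver and kept genes that heart or lung also express. Gene names were not used here, so the genes are given by Ensembl identifier (EquCab3.0), without a function, and the tissues were not checked against named marker genes.

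The animals were Polish cold-blooded stallions between 1 and 2 years old and in good health, and their tissue was collected at slaughter. Every animal contributed a piece of liver (LR) from the right lobe, a piece of lung (L) from the right caudal lobe and a piece of heart muscle (H) from the left ventricle. No treatment was named for any group. The 4 animals were the same in each, so that a replicate number is taken as a horse and each tissue had n = 4. Each horse gave 1 library per tissue, and therefore a difference between horses and a difference between single liver libraries cannot be told apart within liver. These are bulk tissue samples, in which fewer cells of a type and less RNA per cell cannot be told apart.

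Depth ranged from 4345694 gene counts in liver replicate 4 to 23474239 in heart replicate 1, and the size factors ran from 0.273 to 3.31. Liver replicate 4 was the shallowest of the 12 libraries. As a measure of RNA from another tissue, 30 liver-restricted genes (the most abundant of those at least 500-fold above lung) stood at a median of 3.01% of their liver mean in heart replicate 2, compared with 0.0452% to 0.232% in the other 3 heart libraries, and results that rest on heart replicate 2 are given with this in view. In the 4 liver libraries, 30 heart-restricted genes, chosen against lung in the same way, stood at medians of 0.0223% to 0.0415% of their heart mean. Lung-restricted genes, 30 in number and at least 100-fold above heart, stood at medians of 0.204% to 0.525% of their lung mean there, with upper quartiles of 3.63% to 6.73%, and the part of lung RNA in the members' liver values was not tested.

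The label of genes variable in liver only described the members in part. After 5 counts were added, the spread between highest and lowest library in liver ranged from 5.72-fold to 69.5-fold with a median of 8.33-fold, compared with 1.48-fold over all 6119 genes with a liver median of at least 200. In lung, the spread of the 26 genes had a median of 1.96-fold against 1.36-fold over the 6119 genes, and 25 of the 26 exceeded that value. In heart the medians were 2.34-fold and 1.59-fold, and 23 of the 26 were above the value of all genes. Most members thus also had a wider spread than the typical gene in the 2 other tissues. It reached 3.57-fold in lung and 3.99-fold in heart, where the rule itself ended the range. The heart maximum was near the floor, in ENSECAG00000032204 with 0, 14.9, 0 and 3.82 normalized counts in replicate order. Taking estimated liver RNA off heart replicate 2 lowered this gene's spread to 2.67-fold. For ENSECAG00000008834 the estimate (112) exceeded the value (38.8), which was then set to 0. Its change from 2.82-fold to 7.59-fold rests on that 0 and is not a measured spread. At higher counts, ENSECAG00000017172 (3452 to 13203 in heart) had a 3.82-fold heart spread, 3.79-fold after that step. Other low heart values carry the same limit.

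Across the 26 genes, the ratio of the highest to the lowest liver library ranged from 6.0001 to 163.8, with a median of 8.70. It exceeded 20 in 4 genes and 10 in 9 genes. The lowest liver library of a gene held between 1 and 997 reads, with a median of 63.5, and it held fewer than 20 reads in 2 genes. With exact 95% intervals for the ratio of 2 counts, which cover counting error only, the lower bound was at least 6 in 17 genes and at least 4.56 in all 26. Counting error alone therefore left 9 genes with an interval that reached below the limit of 6.

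In 14 of the 26 genes, the largest gap in the ordered liver values set 1 low library apart from the other 3. In 6 genes it set 1 high library apart, and in 6 genes it divided the horses 2 against 2. Among all 6119 genes, the same division gave 37.9% with 1 low library, 33.88% with 1 high library and 28.22% divided 2 against 2, compared with 53.85%, 23.08% and 23.08% of the members. The most frequent single pattern was horses 2, 3 and 4 above horse 1, which held 8 members (30.77%) against 9.152% of the 6119 genes. Horse 2 alone above the gap came next with 5 members (19.23% against 10.39%), and then horses 1, 2 and 4 above horse 3 with 4 members (15.38% against 5.475%). Horse 4, whose liver library was the shallowest, was alone above the gap in 0 members (against 6.374%) and alone below it in 0 (against 11.01%). Horse 3 was also alone above it in 0 members (against 5.769%).

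The 2 genes with the widest range among the 8 with a low value in horse 1 were ENSECAG00000012773 and ENSECAG00000017172. In liver replicates 1 to 4, ENSECAG00000012773 stood at 77.5, 1611, 1254 and 465 normalized counts, a ratio of 20.8 (95% interval 16.0 to 27.6). ENSECAG00000017172 stood at 376, 5115, 4065 and 3037 normalized counts, a ratio of 13.6 (12.04 to 15.4). In both genes, horse 1 lay apart at the bottom and horse 2 was highest. The gap between horse 1 and the next animal was 6.003-fold in the former and 8.07-fold in the latter, wider than the range of the other 3 horses.

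The heart and lung of the same animals had the same horse at the bottom. For ENSECAG00000012773, lung replicates 1 to 4 gave 338, 1193, 870 and 701 normalized counts, and heart replicates 1 to 4 gave 320, 1077, 626 and 355. Horse 1 was lowest and horse 2 highest in each of the 3 tissues, although heart replicates 1 and 4 lay close together. For ENSECAG00000017172, lung replicates 1 to 4 gave 3967, 10979, 9310 and 11776 normalized counts and heart replicates gave 3452, 13203, 5779 and 5620. Horse 1 was again lowest in every tissue, and horse 2 was highest in liver and heart but second to horse 4 in lung.

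Of the 5 genes in which horse 2 alone stood above the gap, ENSECAG00000024770 and ENSECAG00000016898 had the widest range. ENSECAG00000024770 gave 251, 2338, 823 and 490 normalized counts in liver replicates 1 to 4, a ratio of 9.30 (95% interval 8.01 to 10.9). In lung it gave 270, 644, 552 and 415, and in heart 321, 983, 512 and 345 normalized counts. The order of the animals, horse 2 above 3 above 4 above 1, was the same in liver, lung and heart, although heart replicates 1 and 4 lay close together. ENSECAG00000016898 gave 77.5, 635, 264 and 160 normalized counts in liver, a ratio of 8.20 (6.25 to 10.9), with 353, 672, 531 and 540 in lung and 146, 409, 234 and 238 in heart. It too was highest in horse 2 and lowest in horse 1 in each tissue, while horses 3 and 4 lay close together in lung and heart.

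**Figure D1:**
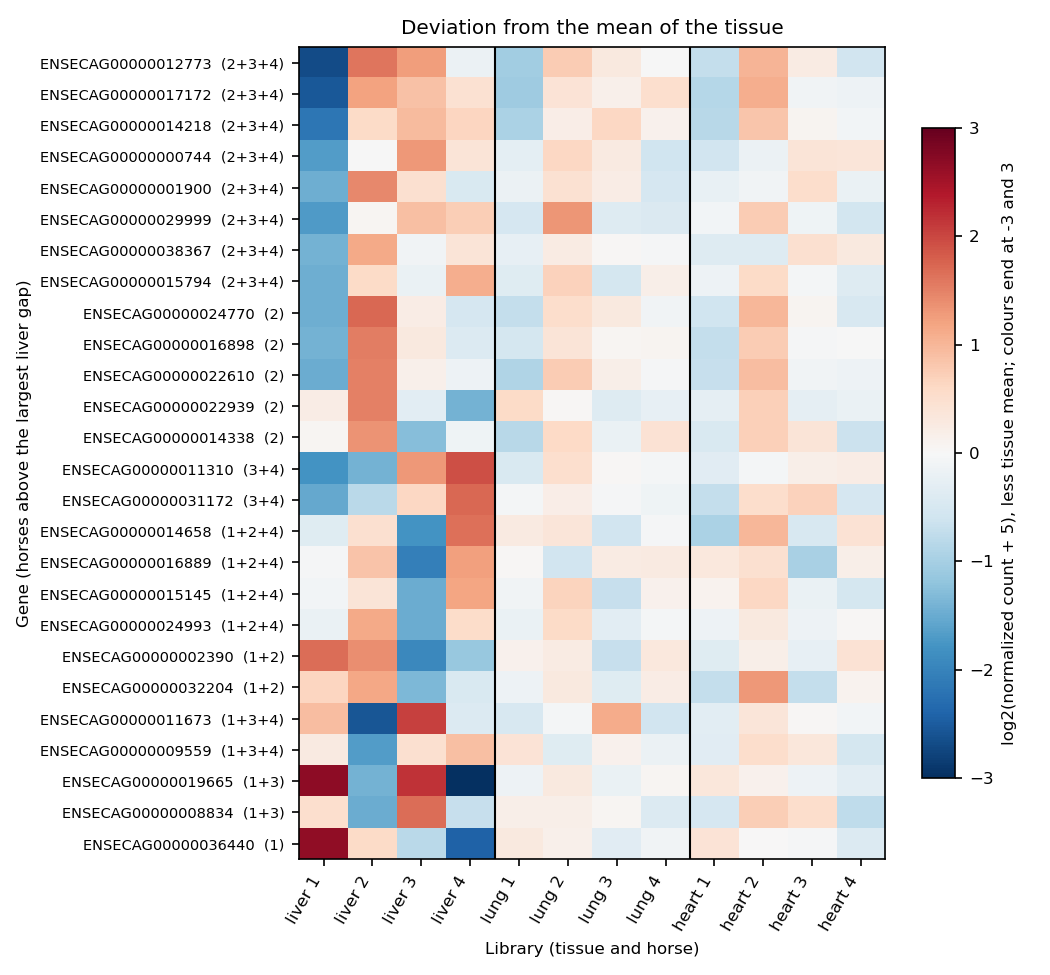
Deviation of log2(normalized count + 5) from the mean of the tissue for the 26 genes (rows) in the 12 libraries (columns), with the horses above the largest liver gap in parentheses. Red is above and blue below the tissue mean, and colours end at -3 and 3; in the top 8 rows liver 1 is blue, and the heart 2 column is the reddest of the heart columns.

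The horse order was then counted over all 26 genes and over the 6119 genes with a liver median of at least 200, as a description. In liver, horse 1 was lowest in 13 members (50%, against 23.4% of the 6119 genes) and horse 2 highest in 11 (42.31% against 29.16%). In lung, horse 2 was highest in 17 members (65.38% against 23.27%) and horse 1 lowest in 10 (38.46% against 27.99%). In heart, horse 2 was highest in 18 members (69.23% against 33.16%) and horse 1 lowest in 16 (61.54% against 25.82%). Heart and lung values entered the choice of genes through their medians, through the upper limit of 4-fold and through the size factors, and no term of the rule named an animal.

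**Figure D2:**
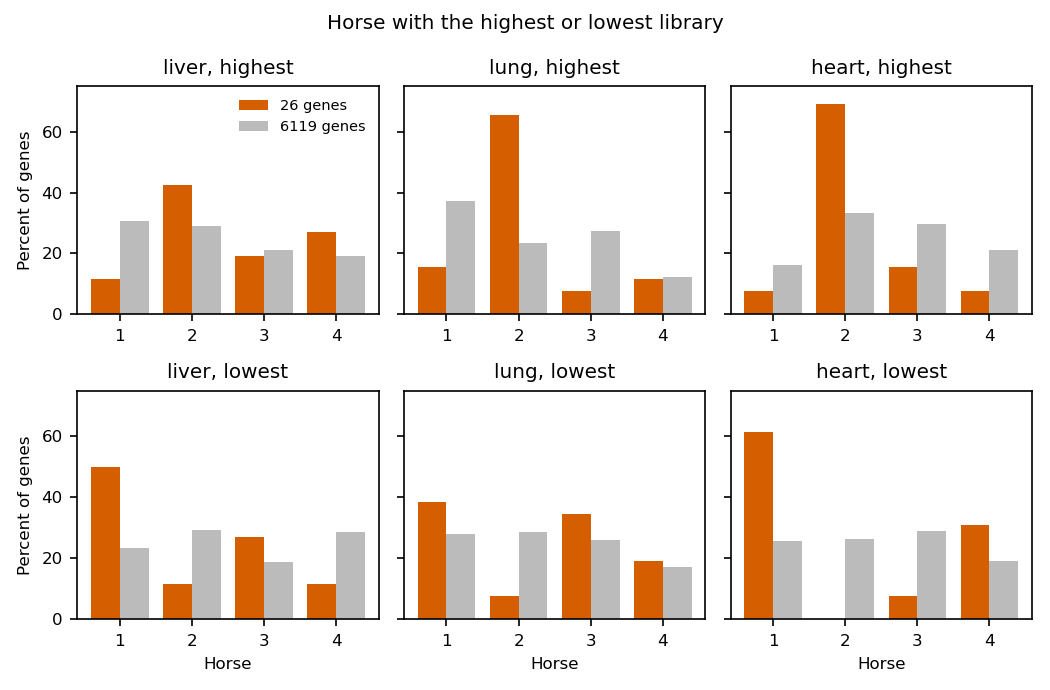
Percent of genes in which each horse had the highest (upper row) or lowest (lower row) library within liver, lung and heart. Orange bars are the 26 genes and grey bars the 6119 genes with a liver median of at least 200; horse 2 was highest in 65.38% of the 26 genes in lung and 69.23% in heart.

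The extreme animal in liver was compared with that in the other tissues. The lowest horse was the same in all 3 tissues in 8 members (30.77% against 9.413% of the 6119 genes), and in all 8 it was horse 1. The highest horse was the same in all 3 tissues in 8 members (30.77% against 12.65%), and in 7 of these it was horse 2. Liver and lung shared the lowest horse in 15 members (57.69% against 33.78%) and the highest in 13 (50% against 37.8%). Liver and heart shared the lowest in 14 (53.85% against 25.33%) and the highest in 13 (50% against 27.36%). Because heart replicate 2 held RNA of liver genes, 3.01% of the liver mean was taken off its value for each member, after which it was still the highest heart library in 15 rather than 18 members. That liver part came to under 10% of the value in heart replicate 2 for 18 of the 26 genes, among them ENSECAG00000017172 at 0.717% and ENSECAG00000012773 at 2.38%. The liver libraries of every member differ at least 6-fold, so their mean can take off too much or too little. From which liver that RNA came was not tested.

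Differences between horses in heart and lung were examined in a model of tissue and horse over the 8 heart and lung libraries, fitted to all genes. The spread within these same libraries was limited to less than 4-fold when the genes were chosen, so leaving out liver does not make the fit independent of the rule, and the counts for the members are a description. In edgeR's quasi-likelihood test, 0 of the 26 members passed a Benjamini-Hochberg adjusted p of 0.05, as did only 0.112% of the 15118 genes tested. At an unadjusted p below 0.05, the test gave 9 members (34.6%) against 6.99% of all genes tested. DESeq2's likelihood ratio test of the same model called 7 members at an adjusted p below 0.05, against 2.13% of the 16200 genes it tested. The 2 tools thus differed on whether a member passed, and the count from DESeq2 also changed with the libraries used. It fell from 7 to 2 without lung replicate 1 (1.64% of all genes), to 3 without heart replicate 1 (1.85%) and to 4 without heart replicate 4 (1.35%). It lay between 5 and 7 when 1 of the other 5 libraries was left out (5 without heart replicate 2). In those fits the share over all genes ran from 1.74% without lung replicate 4 to 4.12% without lung replicate 2.

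The member ranked at the top by both tools was ENSECAG00000022610, singled out after its values were seen. Its lung replicates 1 to 4 gave 753, 2416, 1587 and 1374 normalized counts, and its heart replicates gave 515, 1590, 776 and 752. In liver the values were 139, 1134, 440 and 356 normalized counts. Horse 2 was about the same distance above horse 1 in lung and heart and farther above it in liver, and horses 3 and 4 lay between them in all 3 tissues. Of the 7 genes that DESeq2 called, horse 1 was lowest in all 7 in liver and in lung and in 6 in heart, and horse 2 was highest in 5 in liver, 5 in lung and 7 in heart.

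**Figure D3:**
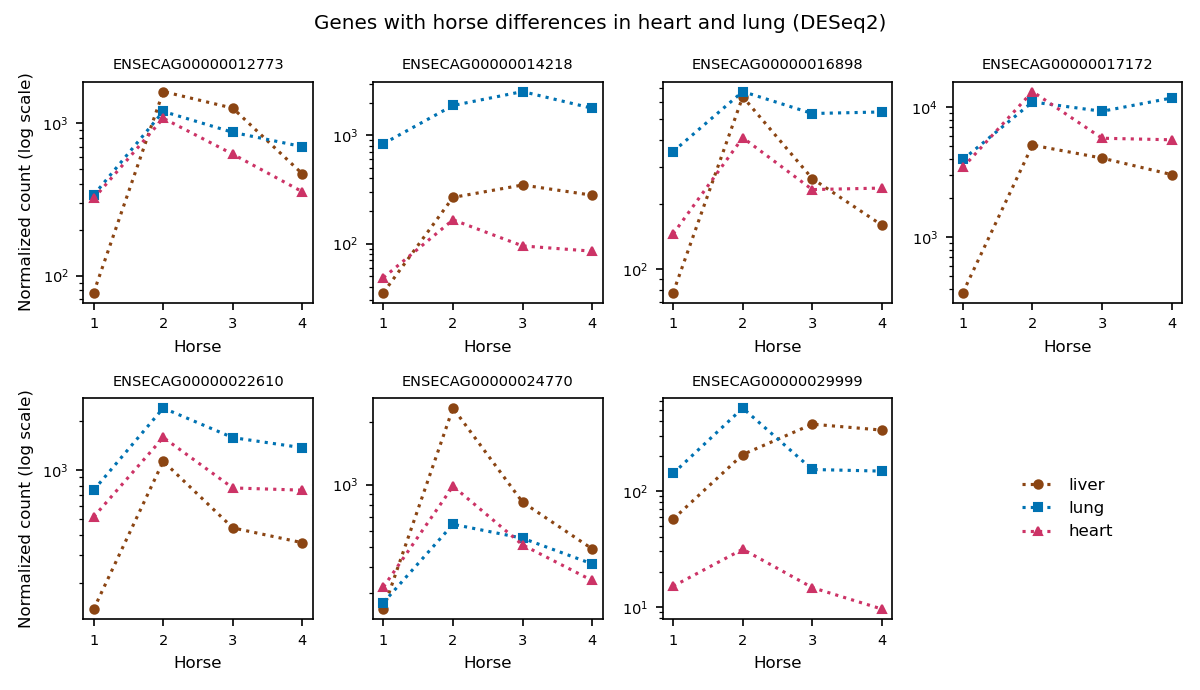
Normalized counts (log axis, a separate range for each gene) by horse in liver, lung and heart for the 7 genes that DESeq2's likelihood ratio test called for differences between horses over the heart and lung libraries; edgeR called 0 of them. Dotted lines join the 4 animals of a tissue only to guide the eye, and horse 1 is the lowest liver and lung point in all 7 genes.

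The gene with the widest liver range, ENSECAG00000019665, did not follow that order. It gave 595, 29.5, 413 and 3.63 normalized counts in liver replicates 1 to 4, from 438, 31, 331 and 1 reads. Horses 1 and 3 stood together at the top, and the lowest library, that of horse 4, held a single read, so that the ratio of 163.8 had a 95% interval of 29.3 to 6486. In heart, replicates 1 to 4 gave 8094, 6900, 5717 and 5105 normalized counts (6454 ± 1320, SD, n = 4), and in lung they gave 5.50, 9.17, 5.14 and 7.14 (6.74 ± 1.84). The gene was thus abundant in every heart and under 10 normalized counts in every lung, and its liver values ran from the level of the lungs upward without reaching that of any heart.

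Set against the heart mean, the liver levels of ENSECAG00000019665 were 9.22%, 0.458%, 6.40% and 0.0563% in horses 1 to 4. Median levels of 30 heart-restricted genes in the same liver libraries were 0.0316%, 0.0223%, 0.0257% and 0.0415%. In horses 1 and 3 this gene therefore stood far above the other genes abundant in heart, in horse 2 it was still above them, and in horse 4 it was close to them. The value of this gene in horse 4 rests on 1 read, and what set its liver libraries apart was not tested.

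**Figure D4:**
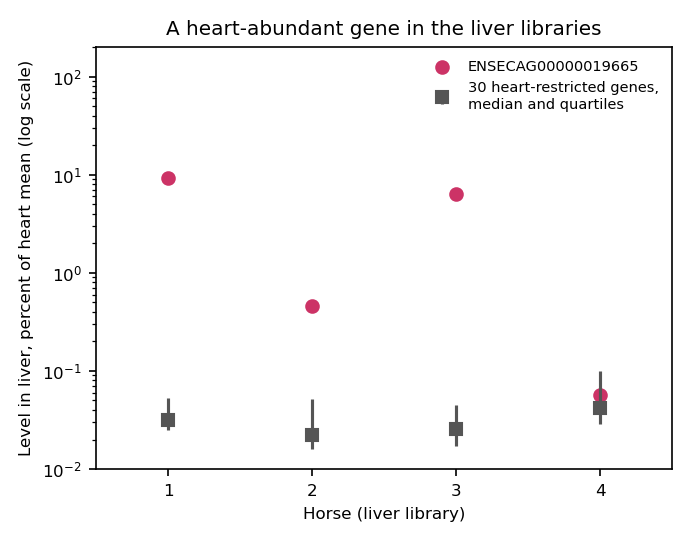
Level in each liver library as a percent of the mean of the 4 heart libraries (log axis) for ENSECAG00000019665 (pink circles) and for 30 heart-restricted genes (grey squares, median, with lines from the first to the third quartile). The pink circle lies at 9.22% and 6.40% in horses 1 and 3 and at 0.0563% in horse 4, within the grey quartile range.

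In 22 of the 26 genes, leaving out 1 of the liver libraries could bring the ratio below 6. Leaving out a library can only lower such a ratio or keep it, and the genes were chosen at 6 or above. Without liver replicate 1, 2, 3 or 4 the ratio remained at least 6 in 14, 14, 17 and 20 of the 26 genes. In 4 genes it remained at least 6 whichever library was left out: ENSECAG00000019665, ENSECAG00000036440, ENSECAG00000011310 and ENSECAG00000002390, named after their values were seen. In 19 genes at least 1 of these omissions brought the ratio below 4.

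Those 4 genes differed in which horses were high. ENSECAG00000036440 was spread evenly, with 2112, 497, 187 and 58.1 normalized counts in liver replicates 1 to 4 and a ratio of 36.3 (95% interval 22.3 to 63.7), while its lung values lay between 178 and 277 and its heart values between 129 and 230. ENSECAG00000011310 was low in horses 1 and 2 and high in horses 3 and 4, at 39.4, 52.4, 377 and 581 normalized counts. ENSECAG00000002390 had the opposite division, at 722, 598, 54.95 and 98.1 normalized counts. ENSECAG00000011310 gave 94.3, 188, 136 and 126 normalized counts in lung, where horse 2 was highest, and 297, 364, 428 and 442 in heart, where horses 3 and 4 were again above horses 1 and 2 but by far less than in liver. ENSECAG00000002390 ranged from 63.1 to 131 in lung and from 110 to 197 in heart, and horse 4 was highest in both.

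As this opposition shows, the members did not form a single group in liver. Over the 325 pairs of members, the median correlation of log2 liver values across the 4 libraries was 0.056, with 26 pairs over 0.9 and 65 under -0.5. With 4 points that share the depth of their libraries, these values describe the set and carry no test.

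The liver median was the highest of the 3 tissue medians in 12 members, the lung median in 8 and the heart median in 6. ENSECAG00000008834 had the highest liver median of the set, on counts that were not corrected for gene length. It gave 3752, 950, 8539 and 1642 normalized counts in liver replicates 1 to 4, a ratio of 8.99 (95% interval 8.41 to 9.62). In lung it was even, at 1371, 1355, 1250 and 912, and in heart it was low, at 13.4, 38.8, 32.9 and 10.5 normalized counts. Horses 1 and 3 were high in liver, whereas in lung horse 4 was lowest and the other 3 were close. In heart replicate 2 its value of 38.8 was below the 112 normalized counts that the liver part would give on average.

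Lung against heart (LvsH) compares the 2 tissues whose libraries were not selected for a wide spread. The model held all 12 libraries, so the liver libraries, which the rule chose to be far apart, entered its estimate of the spread. All 26 genes passed the filter on low counts. With an adjusted p below 0.05 and at least a 2-fold difference in edgeR's quasi-likelihood test, 7 members were higher in lung, against 24.5% of the 15436 genes tested, and 4 were higher in heart, against 20.7%. In a fit of the heart and lung libraries only, 13 members were called in either direction, compared with these 11. Over all genes, 6848 were called in that fit and 6972 in the model of 12 libraries. The shares in the model of 12 libraries were close to those of all genes, and the median log2 fold change was 0.62 over the members and 0.03 over all genes.

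Higher in lung by the widest margin were ENSECAG00000008834, with a log2 fold change of 5.61 ± 0.74 (SE, adjusted p = 4.6136e-05), and ENSECAG00000014658, with 5.28 ± 0.76 (adjusted p = 9.703e-05). The latter gave 1363, 1458, 762 and 1106 normalized counts in lung replicates 1 to 4 and 9.20, 49.3, 14.6 and 31.6 in heart. Its liver values, 372, 670, 135 and 1519, lay between the 2 tissues except for horse 4, which was above every lung. Higher in heart were ENSECAG00000019665, with a log2 fold change of -10.06 ± 1.26 (adjusted p = 3.2339e-05), and ENSECAG00000022939, with -3.43 ± 0.54 (adjusted p = 0.000175). ENSECAG00000022939 gave 1617, 3199, 1614 and 1697 normalized counts in heart, 313, 214, 157 and 174 in lung and 258, 646, 179 and 79.9 in liver. In these 4 genes the lung and heart libraries did not overlap, and each was called in all 8 fits that left out 1 heart or lung library. Both follow in part from picking the largest called differences, and the share of all genes that did the same was not counted.

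Comparisons with liver used the same values as the choice of the genes, and their counts are given as a description only. In LvsLR, 5 members were higher in lung (31.1% of all genes) and 7 higher in liver (19.4%), and 14 were not called. In HvsLR, 5 were higher in heart (26.4%) and 10 higher in liver (22%), and 11 were not called. Both comparisons share the liver libraries, and each shares another tissue with LvsH.

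The limit of 6 cut through a continuous range. Just inside it were ENSECAG00000015794, with 183, 763, 450 and 1101 normalized counts in liver replicates 1 to 4 (ratio 6.0001), and ENSECAG00000032204, with 279, 402, 66.2 and 127 (6.07). Just outside were ENSECAG00000001598, with 525, 3122, 2003 and 1166 (5.95), and ENSECAG00000008659, with 314, 1853, 1343 and 585 (5.90). The latter pair met every other term of the rule and had horse 1 lowest and horse 2 highest in liver. Counting error covers the distance between the 2 pairs.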

How the data were processed

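The data were raw counts, deposited as 1 table per library, which the authors made with FastQC, TopHat2 on EquCab3.0 and HTSeq over Ensembl genes, per the submitters' processing notes and the study's methods. Libraries came from the TruSeq RNA kit version 2 (polyadenylated RNA, strand not marked), read as 150-base pairs on a HiSeq 4000. With the strand setting of HTSeq not given in the sources used here, antisense and overlapping genes cannot be told apart, and genes with near-identical copies are uncertain.

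Samples were grouped by labelled tissue, with the horse as replicate. The members and lists were chosen with earlier results of these data known. Genes named by rule were the 2 of widest liver ratio in each pattern of at least 5 members, the 2 of highest liver median, the 2 on each side of the limit, the 2 with the largest called fold change in each direction of LvsH, and up to 2 called for horse differences, which gave none in edgeR. Gene lists and markers were not run: 0 identifiers matched the RefSeq table at hand, and the symbols in the study's supplements were left unused by choice.

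Tests used edgeR 4.0.16 (default filter, TMM, quasi-likelihood test; 12 libraries for tissues, 8 for horses) and, as an alternative, DESeq2 1.42.0, in R 4.3.3, with Benjamini-Hochberg adjustment over all genes. The edgeR fits were tried on simulated data, and the DESeq2 fits were not. Ratios were computed in Python 3.11.15, with exact binomial 95% intervals for counting error only, since no molecular identifiers marked PCR copies. Replicate numbers were taken to pair the libraries by animal. Deviations from tissue means correlated at a mean of 0.157 over 12 same-horse pairs (0.0867 to 0.372). The mean was -0.052 over 36 other pairs (-0.249 to 0.128), so the ranges overlapped. Because each tissue was centred on its mean, the mean of the other pairs is tied to that of the same-horse pairs. Alternatives were other scalings, thinning, other limits, no filter, the replicate block and leaving out each replicate.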

Additional observations from a re-analysis of the deposited data

Results flagged for a closer look

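Of the 78 groups of 4 libraries (26 genes in 3 tissues), 3 held a library farther from the others than Dixon's 95% critical value allows, 2 in heart, 1 in lung and 0 in liver; chance alone flags about 1 group in 20. ENSECAG00000022939 was highest in heart replicate 2 at 3198.91 normalized counts, with the other 3 hearts between 1614.01 and 1697.21. The same horse was also highest in liver for this gene, and the liver part of the heart value came to 0.273%. ENSECAG00000001900 was highest in heart replicate 3 at 164.695 normalized counts, with the others between 95.381 and 104.54. ENSECAG00000029999 was highest in lung replicate 2 at 517.868 normalized counts, with the others between 141.392 and 152.878. It was among the 7 genes that DESeq2 called for horse differences in heart and lung. Without lung replicate 2, its unadjusted p in edgeR's test was no longer below 0.05. Its heart values were low, from 9.56 to 31.4 normalized counts, and the liver part came to 23.3% in heart replicate 2. What set these libraries apart was not tested.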

How the results depend on the processing

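The rule found 17 genes with a liver ratio of at least 8, 40 with a liver median of at least 100, and 11 to 21 without 1 liver replicate, the fewest without replicate 1 (11, 9 of them among the 26), then replicate 2 (12) and replicate 3 (14). Other scalings found 27 to 30 genes, of which 19 (library totals), 23 (thinned libraries) and 25 (TMM) were among the 26, and 22 of the 26 remained when 5 was added to the liver values too, an alternative chosen after seeing the data. The counts of liver shape and horse order kept within 1.5 times their value under those 3 scalings. Horse differences over heart and lung were called in 7 members by DESeq2's likelihood ratio test and in 0 by edgeR, also without filter, with other size factors and without any heart or lung replicate; the cause of the difference between tools was not tested. Tissue calls among the members stayed within 1.5 times under every alternative run. In the paired fit with the replicate block (the horse), 13 members were called in LvsH (11 without it), 13 in LvsLR (12) and 17 in HvsLR (15), with 8 calls gained and 3 lost in all. Over all genes, the paired fit called 6993 in LvsH (6972 without the block), 7885 in LvsLR (7787) and 7526 in HvsLR (7470). Liver replicate 4 and its 4345694 counts limit the lowest values, down to 1 read in ENSECAG00000019665.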
